A study of Mus musculus with 6 samples.

Results

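The 8 genes described here encode receptors and a transcription factor that steer T cells between blood, lymphoid organs and inflamed tissue. They were the chemokine receptor genes Ccr2, Ccr4, Ccr7, Ccr8, Cxcr3 and Cxcr4, the sphingosine 1-phosphate receptor gene S1pr1 and the transcription factor gene Klf2. They were taken by gene symbol from a table of 24589 genes, and all 8 were found there. The data were bulk RNA-seq of primary CD8+ T cells from wild-type (WT) C57BL/6 mice, isolated with magnetic beads from spleen and peripheral lymph nodes. All cells, controls included, had been activated with antibodies to CD3 and CD28. For the following 24 h, the cells of 3 libraries were kept in 20 µM TVA (trans-vaccenic acid, a trans fatty acid of milk and beef fat) and those of the other 3 in DMSO, the solvent. Per the study's methods, the mice were of both sexes and aged 7 to 12 weeks. Nothing in the labels said whether the libraries of a group came from separate animals or cultures, so p-values measure only the spread between these libraries, which may be technical.

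Chemokine receptors are G protein-coupled receptors that turn a gradient of chemokine into directed migration. In T cells, CCR7 reads CCL19 and CCL21 and brings naive and central memory cells into lymph nodes, whereas S1PR1 reads the lipid sphingosine 1-phosphate and lets cells leave again. KLF2 is a factor of resting T cells that drives transcription of S1pr1. CXCR3, CCR4, CCR8 and CCR2 are receptors of activated and memory cells that guide them toward inflamed or barrier tissues, and CXCR4 reads CXCL12, which holds cells in bone marrow.

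The homing genes moved in both directions with TVA. Ccr4, Ccr8, Ccr2 and Cxcr3, receptors for inflammatory and tissue chemokines, fell, and Ccr7 and S1pr1, the receptors for lymph node entry and exit, rose. Changes were moderate. Mean levels fell by 26.3% (Cxcr3), and in Ccr8 the mean fell by 37.7%, the most of the 8 genes, while the rises were 18.2% (Ccr7) and 32.0% (S1pr1). The tests used limma, a linear model with moderated variances, on log2(TPM + 1), where TPM (transcripts per 1000000 transcripts) is a length-scaled share of a library's transcripts. On this scale the fold change of a low gene is understated. Genes that reached 1 TPM in 3 or more libraries were tested, and all 8 homing genes did so in all 6. Of the 8 genes, 2 were higher and 4 lower at an adjusted p under 0.05, where 5.28% of the 10866 genes tested were called higher and 3.23% lower, 8.51% in all. The groups were apart for 7 of the 8 genes (38.6% of all genes tested), 3 of them higher with TVA (27.3%) and 4 lower (11.2%), and Klf2 was the exception. The median log2 change was -0.14 over the 8 genes and 0.04 over all genes tested.

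The libraries were not equally alike. Between 10778 and 10870 genes reached 1 TPM in a library, and sequencing depth is unknown because TPM keeps no trace of it. DMSO replicate 2 correlated more closely with the TVA libraries (mean r 0.996 across genes) than with the other DMSO libraries (0.994). Without it, 2242 genes were called in place of 925, and 7 of the 8 homing genes in place of 6. Without TVA replicate 1, 2 or 3 the count over all genes was 125, 102 and 113, and 2, 3 and 2 homing genes were called. Without DMSO replicate 3 it was 294, and the homing genes called lower were 2 in place of 4. CD8+ T cell markers were abundant (Cd8a at 274 to 300 TPM with DMSO and 312 to 318 TPM with TVA), while Cd4 was at 3.33 to 4.46 TPM. The summed level of 7 CD8+ T cell markers was 1996 to 2156 TPM with DMSO and 2250 to 2279 TPM with TVA. Of the 7, 1 passed (8.51% of all genes tested did), Cd3g, a subunit of the T cell receptor complex (0.28 on the log2 scale, limma adjusted p 0.0063, and 0.056 and 0.052 without TVA replicate 2 or 3). The part of this shift in the results for the homing genes was not tested. In bulk RNA, fewer cells expressing a gene and less RNA per cell cannot be told apart.

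**Figure D1:**
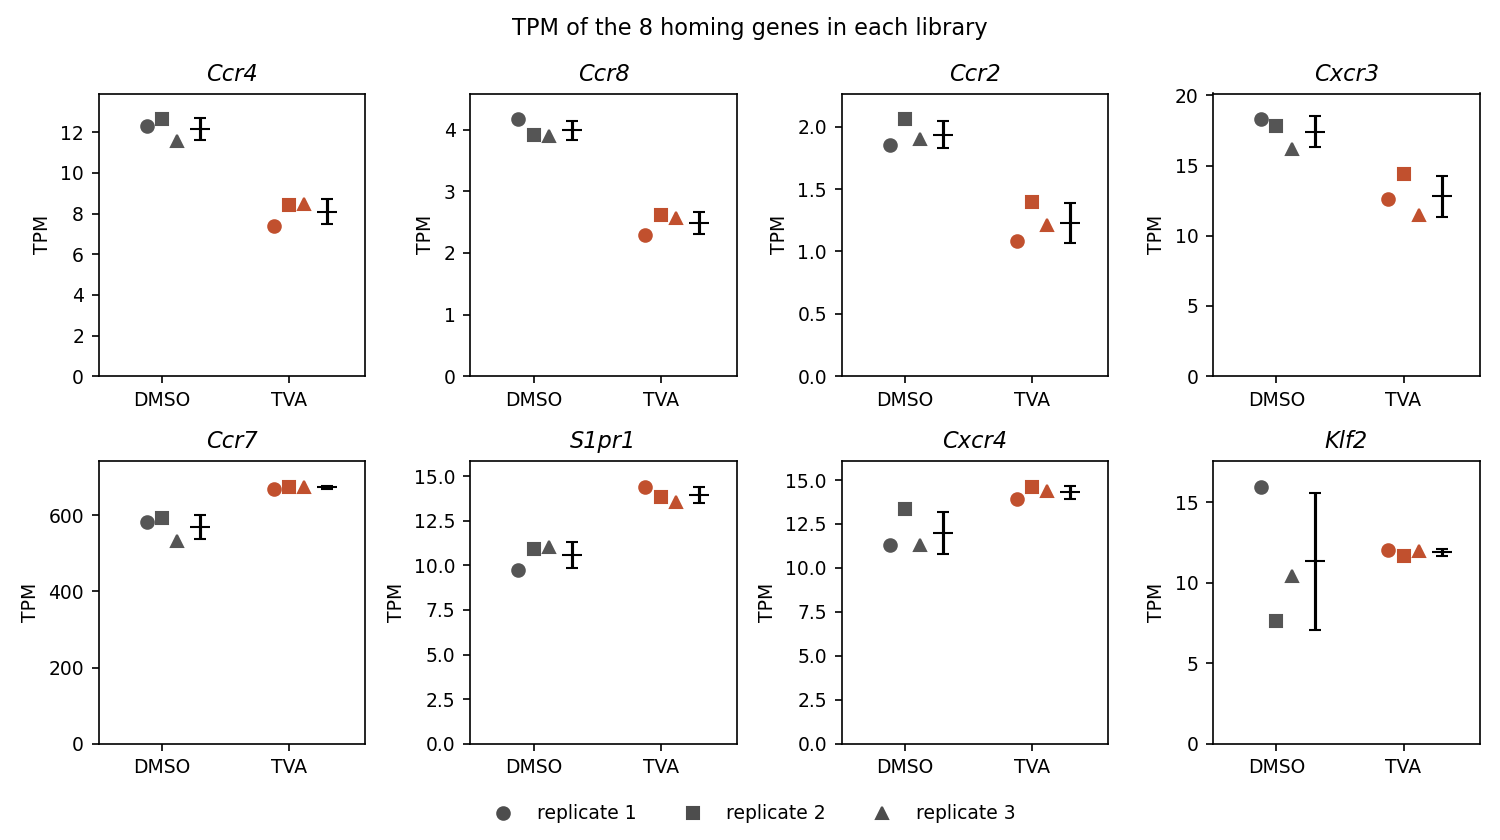
TPM of each of the 8 homing genes (vertical axes, linear and starting at 0, each gene on its own scale) in the 3 DMSO libraries (grey) and the 3 TVA libraries (orange), with marker shape for the replicate number and a bar for the mean ± SD. The groups are apart for every gene except Klf2, whose DMSO values run from 7.62 to 15.97 TPM around TVA values of 11.66 to 12.02 TPM.

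Ccr4 encodes the receptor for CCL17 and CCL22, found on skin-homing and type 2 T cells. The gene lies at chr9:114490316-114504916 on the minus strand (GRCm38, GENCODE vM21). Its TPM was 12.30, 12.64 and 11.55 in DMSO replicates 1, 2 and 3, and 7.38, 8.43 and 8.48 in TVA replicates 1, 2 and 3. Every TVA library lay below every DMSO library. The mean fell from 12.2 ± 0.558 to 8.10 ± 0.621 TPM (SD, n = 3 each). The log2 change was -0.53 with an SE of 0.065 (95% interval -0.69 to -0.38, limma adjusted p 0.0066).

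Ccr8 (chr9:120092114-120094906, plus strand) encodes the receptor for CCL1, likewise a receptor of skin and type 2 T cells. It was at 4.17, 3.91 and 3.89 TPM with DMSO and at 2.29, 2.61 and 2.56 TPM with TVA. The lowest DMSO library was well above the highest TVA library. The mean went from 3.99 ± 0.156 to 2.49 ± 0.172 TPM (SD, n = 3 each) and the log2 change was -0.52 (SE 0.067, 95% interval -0.67 to -0.36, limma adjusted p 0.0080). Ccr4 and Ccr8 kept their calls under each alternative in which they were tested, with limma adjusted p from 0.0022 to 0.036 and from 0.0040 to 0.043. The ratio of Ccr4 to Ccr8 TPM was 3.05 ± 0.158 with DMSO and 3.26 ± 0.0499 with TVA.

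The 250 bases before the RefSeq start of these genes (GRCm38.p6) are shown because Ccr4 and Ccr8 fell by a like proportion and held their calls. Capitals mark matches to CACCC, a box bound by KLF-type factors, searched on both strands together with TGACG, the core of the cAMP response element, and a match read on the opposite strand appears as its reverse complement.
Ccr4 (chr9:114496545-114496794, minus strand): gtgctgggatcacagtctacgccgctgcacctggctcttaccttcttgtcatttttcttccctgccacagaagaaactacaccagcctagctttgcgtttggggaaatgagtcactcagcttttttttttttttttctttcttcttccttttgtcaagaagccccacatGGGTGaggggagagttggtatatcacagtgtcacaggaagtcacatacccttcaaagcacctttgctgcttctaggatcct
Ccr8 (chr9:120091883-120092132, plus strand): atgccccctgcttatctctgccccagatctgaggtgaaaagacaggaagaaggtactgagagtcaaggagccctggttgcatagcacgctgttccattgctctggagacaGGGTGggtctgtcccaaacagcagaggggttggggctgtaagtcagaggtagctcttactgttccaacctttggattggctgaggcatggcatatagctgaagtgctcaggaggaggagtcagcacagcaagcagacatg
The Ccr4 match lies 81 to 77 bases before the start and the Ccr8 match 140 to 136 bases before it. RefSeq promoter windows were matched for 6 of the 8 genes. CACCC was found in 4 of them, those of Ccr4, Ccr8, Cxcr4 and Klf2, and in 52.0% of 32851 mouse windows of the same length. TGACG was found in the window of Klf2, at 241 to 237 bases before the start, and in 17.8% of all windows. The Ccr4 window lies inside the longer gene span that GENCODE annotates, and the last bases of the Ccr8 window overlap the first annotated exon. The matches are descriptions of letters, not binding sites.

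Ccr2 (chr9:124101950-124113557, plus strand) encodes the receptor for CCL2 and CCL7, best known from monocytes and also carried by effector T cells. Its TPM was 1.85, 2.06 and 1.90 with DMSO and 1.08, 1.40 and 1.21 with TVA, the lowest level of the 8 genes. The groups did not overlap. The mean fell by 36.5%, from 1.94 ± 0.110 to 1.23 ± 0.161 TPM (SD, n = 3 each), which on the log2 scale was -0.40 (SE 0.082, limma adjusted p 0.032). With a pseudocount of 0.1 in place of 1 the log2 change was -0.62. The call was lost without DMSO replicate 3 (adjusted p 0.079), without TVA replicate 1, 2 or 3 (0.099, 0.086 and 0.12) or with a replicate block in the model (0.060 by limma). Of the 50-base stretches in Ccr2 transcripts, 1.91% also occur in other genes.

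Cxcr3 (chrX:101731535-101734269, minus strand) encodes the receptor for the interferon-induced chemokines CXCL9, CXCL10 and CXCL11 and marks effector and memory CD8+ T cells. It was at 18.30, 17.78 and 16.15 TPM with DMSO and at 12.64, 14.37 and 11.47 TPM with TVA. All TVA values were lower, with TVA replicate 2 the closest to the DMSO range. The mean fell by 26.3%, from 17.4 ± 1.12 to 12.8 ± 1.46 TPM (SD, n = 3 each), and the log2 change was -0.42 (SE 0.083, limma adjusted p 0.029). The call was lost without DMSO replicate 3 (0.056), TVA replicate 1 (0.10) or TVA replicate 3 (0.11), and with no filter on low values (adjusted p 0.066 by limma).

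Ccr7 (chr11:99144196-99155077, minus strand) was by far the most abundant of the 8 transcripts and ranked at 205 of 10866 genes tested by mean TPM. It was at 582.21, 593.02 and 532.71 TPM with DMSO and at 669.85, 674.42 and 675.08 TPM with TVA. The TVA libraries lay close together and above all DMSO libraries. The mean rose from 569 ± 32.2 to 673 ± 2.85 TPM (SD, n = 3 each), and the log2 change was 0.24 with an SE of 0.047 (95% interval 0.13 to 0.35, limma adjusted p 0.026). The call was lost without TVA replicate 1, 2 or 3 (limma adjusted p 0.097, 0.13 and 0.13), with no filter on low values (0.054) and with a replicate block in the model (0.060).

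S1pr1 (chr3:115710433-115715072, minus strand) encodes the receptor by which T cells leave lymph nodes toward lymph and blood. Its TPM was 9.73, 10.91 and 11.04 with DMSO and 14.41, 13.84 and 13.57 with TVA. No DMSO library reached the lowest TVA library. The mean rose by 32.0%, from 10.6 ± 0.722 to 13.9 ± 0.429 TPM (SD, n = 3 each), and the log2 change was 0.37 (SE 0.059, 95% interval 0.23 to 0.51, limma adjusted p 0.016). The call was kept when any DMSO library was left out. It was lost without TVA replicate 1, 2 or 3 (limma adjusted p 0.074, 0.086 and 0.073) and with a replicate block in the model (0.053).

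Cxcr4 (chr1:128588199-128592293, minus strand) was at 11.32, 13.37 and 11.30 TPM with DMSO and at 13.91, 14.62 and 14.37 TPM with TVA. The groups did not overlap, with DMSO replicate 2 nearest to the TVA libraries. The log2 change of 0.24 (SE 0.069, 95% interval 0.079 to 0.40) did not pass the threshold (limma adjusted p 0.067). Without DMSO replicate 2 it was 0.31 and passed (limma adjusted p 0.0084).

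Klf2 (chr8:72319033-72321656, plus strand) was at 15.97, 7.62 and 10.42 TPM with DMSO and at 12.02, 11.66 and 12.00 TPM with TVA. The DMSO libraries spread on both sides of the TVA libraries. The log2 change was 0.12 (SE 0.21, 95% interval -0.37 to 0.61, limma adjusted p 0.71), an interval that holds the changes of Ccr7, S1pr1 and Cxcr4 but not those of the 4 genes that fell. It was -0.11 without DMSO replicate 2 and 0.38 without DMSO replicate 1 (limma adjusted p 0.60 and 0.068). Klf2 transcripts have a GC content of 61.6%, the highest of the 8 genes, against a median of 50.4% over the genes tested. The libraries differed in GC dependence. The Spearman correlation across genes between GC content and a library's deviation from the mean was 0.59 in DMSO replicate 1, near 0 in the other DMSO libraries and between -0.41 and -0.16 in the TVA libraries. After a GC correction the Klf2 change was 0.34 (limma adjusted p 0.12), and the 6 calls among the other genes were kept.

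**Figure D2:**
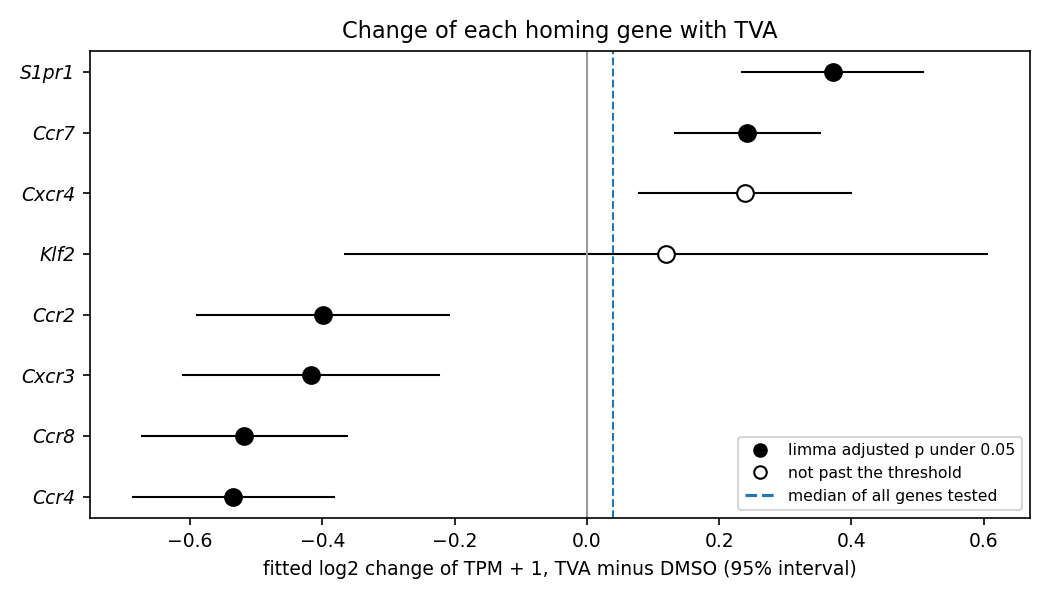
Fitted change of each homing gene with TVA on the log2(TPM + 1) scale (horizontal axis), with bars for the 95% interval, filled circles for a limma adjusted p under 0.05 and a dashed line at the median of all genes tested (0.04). Ccr4, Ccr8, Cxcr3 and Ccr2 lie at -0.53 to -0.40, S1pr1 and Ccr7 at 0.37 and 0.24, and the interval of Klf2 spans 0.

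TPM is scaled by transcript length, so levels can be ordered between genes. With DMSO the order by mean TPM was Ccr7, Cxcr3, Ccr4, Cxcr4, Klf2, S1pr1, Ccr8 and Ccr2. Neighbours from Ccr4 to S1pr1 in that order overlapped. With TVA it was Ccr7, Cxcr4, S1pr1, Cxcr3, Klf2, Ccr4, Ccr8 and Ccr2, and neighbours from Cxcr4 to Klf2 overlapped. Behind Ccr7, Cxcr3 thus stood apart from Ccr4 with DMSO, whereas with TVA Cxcr4 overlapped S1pr1 and S1pr1 overlapped Cxcr3. Ccr7 stood far above the rest in both groups.

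Ratios between members within a library do not depend on how the library was scaled. The ratio of S1pr1 to Cxcr3 TPM was 0.532, 0.614 and 0.684 with DMSO and 1.14, 0.963 and 1.18 with TVA. S1pr1 was thus below Cxcr3 in all DMSO libraries and above it in TVA replicates 1 and 3. The ratio of Ccr7 to Ccr4 was 47.3, 46.9 and 46.1 with DMSO and from 79.6 to 90.8 with TVA (mean 83.5 ± 6.33, SD, n = 3), with no overlap. Ccr7 and Cxcr4 both had a higher mean with TVA, and their ratio was 47.6 ± 3.57 with DMSO and 47.1 ± 1.02 with TVA (SD, n = 3 each). The pairs were chosen with the changes known, so these ratios describe the changes and are no further support for them.

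The genes with the most similar pattern to each called homing gene were found by Pearson's r of log2(TPM + 1) over the 6 libraries, among genes that averaged 5 TPM or more. They were Zc3h12d (0.996), Npas4 (0.993) and Atxn1 (0.992) for Ccr4, and Slc2a3 (0.997), Atxn1 (0.997) and Tns1 (0.996) for Ccr8. For Ccr2 they were Nupr1 (0.991), Rasgrp1 (0.990) and Pogk (0.988), and for Cxcr3 they were Batf (0.983), Hspbap1 (0.981) and Mxd1 (0.981). For Ccr7 they were Kbtbd4, Tagap and Brk1 (0.998, 0.998 and 0.997), and for S1pr1 Hmgxb4, Acsl3 and Rabggtb (0.996, 0.993 and 0.992). High values are common with 6 libraries in 2 groups, from 158 genes with r above 0.9 for Cxcr3 to 889 for Ccr7, and they are given as a description.

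The other genes of the homing pathway were taken from lists. Of all genes tested, 8.51% passed, 5.28% as higher and 3.23% as lower. Of 17 other chemokine receptor genes, 6 were tested and 1 passed, and the 11 that were not tested stayed at or below 0.72 TPM in every library. The receptor that passed was Ccr9, which responds to CCL25 and guides T cells to the small intestine. It was at 5.15, 5.29 and 5.49 TPM with DMSO and at 7.30, 7.42 and 7.06 TPM with TVA, a rise of 0.39 on the log2 scale (limma adjusted p 0.0097, 0.054 and 0.068 without TVA replicate 1 or 2). Cxcr6, an effector and tissue-memory receptor gene and the most abundant of the list, had 64.7 ± 6.72 TPM with DMSO against 71.7 ± 2.07 with TVA, a difference of 0.15 on the log2 scale (limma adjusted p 0.20). The median log2 change of the list was 0.06.

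Of 13 genes encoding ligands of the 6 chemokine receptors, 12 were in the table and 7 were tested. The 2 that passed (8.51% of all genes tested did), Ccl2 and Ccl7, encode ligands of CCR2. Ccl2 rose from 2.27, 2.68 and 2.60 TPM to 6.83, 5.99 and 5.92 TPM (1.04 on the log2 scale, limma adjusted p 0.0010). Ccl7 was at 0.64, 0.71 and 0.37 TPM with DMSO and at 2.67, 2.87 and 3.00 TPM with TVA (1.30 on the log2 scale, and 2.17 with a pseudocount of 0.1). Ccl7 reached the filter through the TVA libraries alone, so its count among the genes that passed is no support, and with no filter on low values its limma adjusted p over 16749 genes was 0.0051. Neither call was lost in any alternative that included the gene. For Ccl7 this is no further support, because all of these but the fit with no filter kept the same filter.

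Myeloid cells are a common source of CCL2 and CCL7. Of 10 myeloid marker genes, 8 were tested, of which Lyz2, Mpeg1 and S100a9 were higher with TVA (log2 changes 0.38, 0.43 and 0.82) and Ly6c2, which CD8+ T cells also express, was lower (-0.81). Of all genes tested, 5.28% were higher and 3.23% lower. Only Ly6c2 kept its call with each library left out (Lyz2 had a limma adjusted p of 0.054 without TVA replicate 2, and Mpeg1 and S100a9 of 0.073 to 0.16 without a TVA library, and Mpeg1 of 0.092 without DMSO replicate 3). In all, S100a9 lost its call in 5 of 13 alternatives. Mpeg1 lost it in 8 of 13, among them median-of-ratios scaling and quantile normalization (limma adjusted p 0.055 and 0.057). The summed level of the list was 144 to 158 TPM with DMSO and 125 to 132 TPM with TVA, a difference set by Ly6c2. The other 9 genes summed to 51.2 to 53.6 TPM with DMSO and 68.6 to 73.8 TPM with TVA. Of them, 8 were higher in every TVA library than in any DMSO library (27.3% of all genes tested). Of these 8, Adgre1 and Fcgr1 were not tested, and Csf1r reached the filter through the TVA libraries alone. Among the defining genes, Csf1r was at 0.64 to 0.82 TPM with DMSO and 1.00 to 1.28 TPM with TVA, Adgre1 at 0.26 to 0.50 and 0.57 to 0.89 TPM, and Fcgr1 at 0.13 to 0.16 and 0.44 to 0.56 TPM. The part of these genes in the Ccl2, Ccl7 and Ccr2 results was not tested.

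Ligands of the other receptors did not pass. Ccl1, the CCR8 ligand, was at 315 ± 39.0 and 334 ± 8.39 TPM, with a difference of 0.09 on the log2 scale (limma adjusted p 0.45). The Ccl1 difference was 0.013 without DMSO replicate 1, and 0.19 without DMSO replicate 2, where it passed (limma adjusted p 0.034). Cxcl10, a CXCR3 ligand, was at 22.8 ± 0.329 and 26.9 ± 3.13 TPM (0.23, limma adjusted p 0.11, and 0.0497 in 1 of 14 alternatives). The stromal chemokine genes Ccl21a and Cxcl12 were listed at 0 in all 6 libraries.

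In the sphingosine 1-phosphate and egress list, 11 of 14 genes in the table were tested and 1 passed (8.51% of all genes tested did). Sgpl1, the lyase that degrades sphingosine 1-phosphate, was at 28.5 ± 1.06 TPM with DMSO and 32.4 ± 0.789 TPM with TVA (SD, n = 3 each). Its log2 change of 0.18 (limma adjusted p 0.047) was past the threshold in the fit as reported but lost in 10 of 14 alternatives, among them the fits without DMSO replicate 1 or 3 (adjusted p 0.0502 and 0.0998) and without TVA replicate 1, 2 or 3 (0.10, 0.19 and 0.18). Cd69, whose protein binds S1PR1 and keeps it from the cell surface, was at 356.67, 431.74 and 410.13 TPM with DMSO and at 381.53, 398.47 and 395.07 TPM with TVA. The groups overlapped, and the log2 change was -0.02 (limma adjusted p 0.83).

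The list of selectin ligand and adhesion genes held 14 genes, of which 11 were tested. Of these, 1 was higher and 2 lower (5.28% and 3.23% of all genes tested), with a median log2 change of 0.05. Itgb7, an integrin subunit of gut-homing cells, was at 39.4 ± 3.21 and 47.4 ± 0.885 TPM (0.26 on the log2 scale, limma adjusted p 0.042). Itgb7 was no longer called without DMSO replicate 3 (0.071) or TVA replicate 1, 2 or 3 (0.11, 0.16 and 0.16). The Itgb7 call was also lost with no filter on low values, no variance trend or a replicate block (limma adjusted p 0.075, 0.054 and 0.075). Itgae, the integrin subunit CD103 of tissue-resident cells, fell from 3.08, 2.70 and 3.11 TPM to 1.63, 1.56 and 1.65 TPM (-0.60 on the log2 scale, limma adjusted p 0.0062), a call that no alternative that included the gene removed. Fut7, a fucosyltransferase that builds ligands for E- and P-selectin, went from 2.82, 2.14 and 2.09 TPM to 1.48, 1.39 and 1.34 TPM (-0.47 on the log2 scale, limma adjusted p 0.032). The Fut7 call was lost without DMSO replicate 3 (0.059) or TVA replicate 1, 2 or 3 (0.095, 0.13 and 0.13), and with no filter or a replicate block (limma adjusted p 0.058 and 0.054).

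All 13 genes of the list of KLF and FOXO factors and of the resting T cell program were tested with limma, and 0 passed, with 4 at an unadjusted p under 0.05. With the GC correction 1 passed, and 2 did when DMSO replicate 2 was left out. Tcf7, a factor of naive and memory cells, was at 169 ± 10.3 and 179 ± 2.65 TPM (0.08 on the log2 scale, limma adjusted p 0.28). Of 33 genes for signal transduction and desensitization of chemokine receptors, 32 were tested, with log2 changes from -0.28 to 0.16. Rgs10, a regulator that shortens G protein signalling, was the 1 that passed, where 8.51% of all genes tested did. It fell from 70.08, 63.92 and 67.09 TPM to 53.00, 56.13 and 56.09 TPM (-0.28 on the log2 scale, limma adjusted p 0.018). Rgs10 was no longer called without DMSO replicate 3 (limma adjusted p 0.057), without TVA replicate 1, 2 or 3 (0.083, 0.089 and 0.089) or with a replicate block (0.056).

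**Figure D3:**
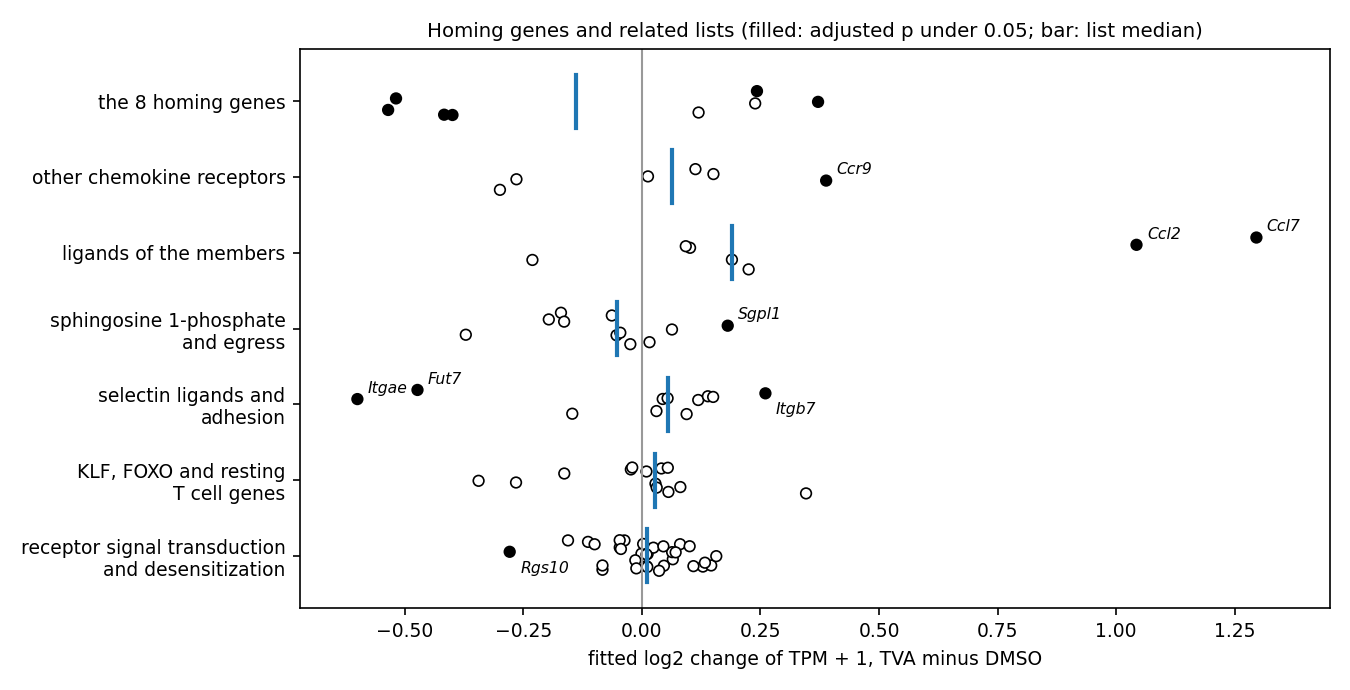
Fitted log2 change of TPM + 1 with TVA (horizontal axis) for each tested gene of the 8 homing genes and of 6 related lists (rows), filled where the limma adjusted p was under 0.05, with a blue bar at the median of each row. The called homing genes lie on both sides of 0, at -0.53 to -0.40 and at 0.24 and 0.37, and the median of all 8 is -0.14. The medians of the related lists run from -0.05 to 0.19, and their single genes from -0.60 to 1.30.

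CCR4 and CCR8 are also markers of type 2 T cells, and CCR4 of regulatory and other CD4+ T cells. Of 5 type 2 marker genes, 2 were lower with TVA (3.23% of all genes tested), Il13 (log2 change -1.03, limma adjusted p 5.0e-04) and Il4 (-0.57, limma adjusted p 0.016). Il4 lost its call without DMSO replicate 3 or TVA replicate 2 or 3 (limma adjusted p 0.053, 0.081 and 0.080) and with a replicate block in the model (0.052). The summed level of the 5 genes was 52.8 to 55.8 TPM with DMSO and 30.5 to 34.6 TPM with TVA. Gata3, the defining factor, was at 7.75, 6.64 and 6.97 TPM with DMSO and at 7.13, 6.36 and 6.65 TPM with TVA (-0.07, limma adjusted p 0.49). The summed level of 3 CD4+ T cell markers went from between 14.6 and 15.6 TPM to between 11.4 and 13.3 TPM, with 1 of them, Cd40lg, lower (limma adjusted p 0.030, 0.079 to 0.13 without DMSO replicate 3 or any TVA library, 0.065 with no filter on low values and 0.073 with a replicate block). That of 2 regulatory T cell markers was 3.36 to 3.98 TPM with DMSO and 3.69 to 4.07 TPM with TVA, none past the threshold, with Foxp3 below 1 TPM in every library. Of 3 NK cell markers, Eomes, also a CD8+ memory factor, was higher, and the summed level was 21.3 to 23.9 TPM with DMSO and 32.5 to 33.1 TPM with TVA, while Ncr1 and Klrb1c stayed below 0.5 TPM. Summed B cell markers were at 11.4 to 15.0 and 10.8 to 11.2 TPM, dendritic cell markers at 7.30 to 7.62 and 6.50 to 7.17 TPM and red cell markers at 33.2 to 56.4 and 45.5 to 56.2 TPM. No gene of these lists was at 0 in all libraries, and their part in the Ccr4 and Ccr8 results was not tested.

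**Figure D4:**
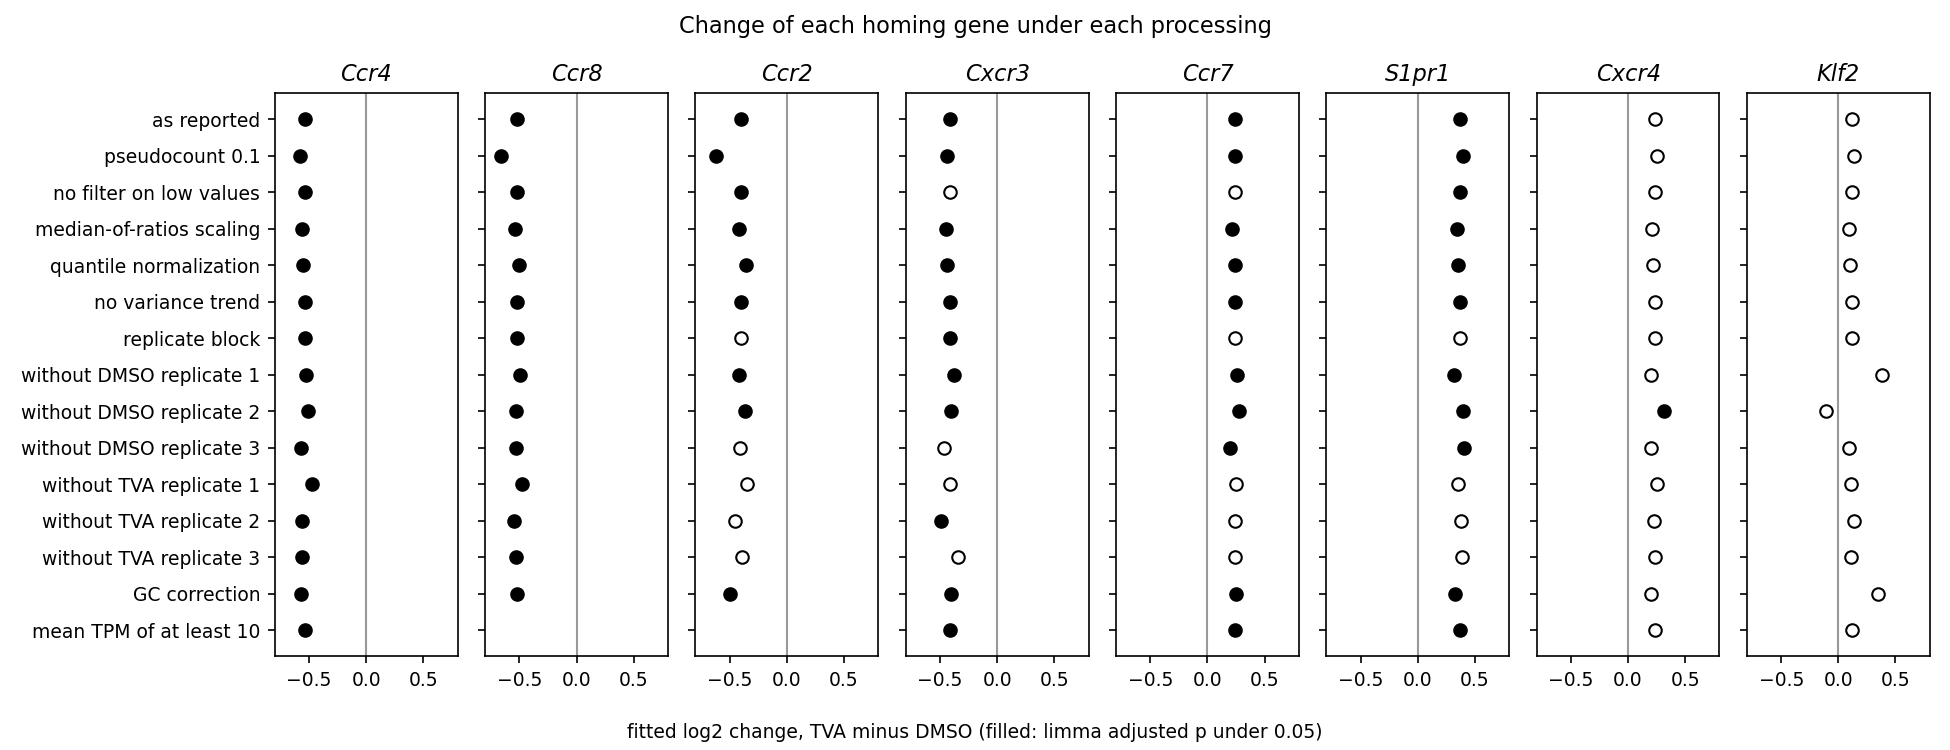
Fitted log2 change of each homing gene (horizontal axes) under the reported processing and 14 alternatives (rows), filled where the limma adjusted p was under 0.05. Ccr2 and Ccr8 are absent from the lowest row because their mean was under 10 TPM. Ccr4 and Ccr8 are filled in every row where they were tested, and Klf2 is on the opposite side of 0 without DMSO replicate 2.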

How the data were processed

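Bulk RNA-seq was measured in 6 libraries, 3 per group. Groups and replicate numbers came from the sample titles, and columns were assigned through the column names in the sample descriptions. The authors deposited 1 table of TPM values with 2 decimals, made with STAR and RSEM on mm10 per the submitters' processing notes, with no versions. The gene annotation and the use of strand are not given in the sources used here. Per the labels, RNA was extracted with an RNeasy kit and libraries made with a SMARTER mRNA-Seq kit, while the study's methods name another RNA kit. TPM keeps no depth, so no counting interval is given. The numbers of reads shared between similar genes depend on how RSEM assigned them.

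TPM values were used as deposited. The comparison of TVA with DMSO used limma 3.58.1 (R 4.3.3) on log2(TPM + 1), with a variance trend, two-sided, without a replicate block, and with Benjamini-Hochberg adjustment over all genes that reached 1 TPM in 3 or more libraries. The threshold was 0.05. Alternatives were a pseudocount of 0.1, no filter (all genes above 0 TPM), genes averaging 10 TPM or more, median-of-ratios scaling, quantile normalization, no trend, a replicate block, each library left out, and a GC correction (a loess curve of each gene's deviation on GC content, span 0.5, subtracted within each library). GC content came from GENCODE vM21 transcripts and was available for 99.4% of genes tested. Positions are GENCODE vM21 and promoters RefSeq, both on GRCm38, the build that mm10 names.

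Named genes were the 8 homing genes, each listed gene past the threshold, at most 4 of the most abundant others per list, the 3 genes most like each called homing gene, and the cell type markers. Some genes of the lists are not reported here. The homing genes and the lists were chosen with earlier results of these data known. On simulated data of 10866 genes, 86 of 100 genes changed by 0.5 on the log2 scale and 94 of 100 changed by 1 were recovered, and 18 unchanged genes were called. The simulated noise was independent between genes and libraries, so differences shared by the genes of a library, as in GC dependence, were not simulated.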

Additional observations from a re-analysis of the deposited data

How the results depend on the processing

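Over the 8 homing genes, 110 refitted values were obtained, of which 90 kept the direction and the call or lack of one, 18 lost the call, 1 gained it (Cxcr4) and 1 changed sign (Klf2). Of the 8, 6 passed as reported (2 higher, 4 lower). With all genes above 0 TPM 1 passed as higher, with a mean of at least 10 TPM 2 as lower (Ccr2 and Ccr8 were then not tested), and with a library left out 2 to 7 passed (0 to 3 higher, 2 to 4 lower). Without DMSO replicate 3 there were 2 lower, and without TVA replicate 1, 2 or 3 the totals were 2, 3 and 2. Over all genes, 925 were called (574 higher, 351 lower), and 494 with all genes above 0 TPM (270 higher, 224 lower), 608 with a mean of at least 10 TPM (178 lower) and 102 to 2242 with a library left out (38 to 1223 higher, 64 to 1019 lower). The count was 294 without DMSO replicate 3 and 125, 102 and 113 without TVA replicate 1, 2 or 3. After the GC correction 537 were lower. After median-of-ratios scaling 292 were higher, and after quantile normalization 357, so that the share of higher calls, 62.1% as reported, was 38.7% and 46.1%. Median-of-ratios scaling moved the median log2 change of all genes from 0.04 to 0.01, and no homing gene changed direction or call under either scaling. The cause of these differences was not tested, beyond the smaller number of genes or libraries in some of them. Depth is unknown, so what it limits cannot be stated.

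Deviations from the group means correlated at 0.16, 0.03 and -0.08 between DMSO and TVA libraries of the same number, and 2 of 6 libraries correlated best with their own number. The labels gave the samples only a shared number. Deviations within a group of 3 sum to 0 for each gene, so these correlations cannot decide whether libraries were paired. With the replicate block 218 genes were called (93 higher, 125 lower). Of the homing genes 3 passed, 0 of them higher, and Ccr2, Ccr7 and S1pr1 had limma adjusted p-values of 0.060, 0.060 and 0.053 with log2 changes of -0.40, 0.24 and 0.37.

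Counts past the threshold in the lists moved as follows. Other receptors, 1 as reported, gave 0 with a mean of at least 10 TPM, 2 after median-of-ratios scaling, without the trend and after the GC correction, and 0 to 1 with a library left out. Ligands, 2 as reported, gave 0 with a mean of at least 10 TPM and 2 to 3 with a library left out. The sphingosine 1-phosphate list, 1 as reported, gave 0 with all genes above 0 TPM, under both scalings, without the trend and with the block, 2 after the GC correction, and 0 to 1 with a library left out. Adhesion genes, 3 as reported, gave 1 with all genes above 0 TPM, with a mean of at least 10 TPM and with the block, and 1 to 4 with a library left out. KLF and FOXO genes, 0 as reported, gave 1 after the GC correction and 0 to 2 with a library left out. Signal transduction genes, 1 as reported, gave 2 after median-of-ratios scaling, 0 with the block and 0 to 2 with a library left out. With a library left out, values that changed sign ran from -0.11 to 0.38 for Klf2 and from -0.10 to 0.034 for Cd69. The opposite sign came without DMSO replicate 2. What lay behind these changes was not tested.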
